A study of Mus musculus with 20 samples.

Results

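Ctbp2, Stx3 and Pclo encode proteins of the presynaptic terminal that are tied to the ribbon synapse, and all probes whose platform annotation carries one of these gene symbols were taken, whatever their values. These are 3 of the 9230 genes named on the array, with 1 probe each among 10500 probes, and all 3 had a value on every one of the 20 arrays. The arrays were of the CodeLink type of GE Healthcare (Amersham), which measure 1 biotin-labelled sample per array. Total RNA came from 2 pools, one of retina from adult C57/B6 mice and one of cortex from Swiss-Webster mice at postnatal day 1. Per the labels each pool was run as 5 technical replicates at a first site and as 5 at site 2, which gave 4 groups of 5 arrays: retina and cortex at the first site, and retina and cortex at site 2. No group carried a mutation or a treatment. Each tissue was a single pool, so p-values measure the spread between arrays and not between animals, and tissue, strain and age cannot be told apart. In RNA of whole tissue, fewer cells of a type and less RNA per cell cannot be told apart either.

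Photoreceptors and bipolar cells of the retina release transmitter continuously and in graded amounts, at active zones where an electron-dense plate, the ribbon, holds a supply of synaptic vesicles close to the membrane. The main scaffold protein of the ribbon is RIBEYE, which Ctbp2 encodes from an internal start: it joins a domain of its own to a domain shared with the nuclear corepressor CtBP2. Syntaxin 3, from Stx3, is the membrane fusion protein (t-SNARE) of ribbon terminals, where conventional synapses of the brain use syntaxin 1. Piccolo, from Pclo, is a very large scaffold of conventional active zones, and a shorter variant of it is the form found at ribbon synapses. The platform annotation does not say which transcripts of these genes the probes read, so CtBP2 and RIBEYE, or the long and the short Piccolo, were not separated.

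Start regions of the 3 genes are shown because Ctbp2 has separate starts and because Ctbp2 and Stx3 were higher in the same tissue. RefSeq (mouse GRCm38.p6) places Ctbp2 on the minus strand of chromosome 7 (132986998 to 133124009), Stx3 on the minus strand of chromosome 19 (11775118 to 11821569) and Pclo on the plus strand of chromosome 5 (14514906 to 14863465). The 250 bases before each start in the RefSeq promoter table are printed 5′ to 3′ on the strand of the gene. Capitals mark letters searched on both strands: TAATCC, a core recognised by the photoreceptor factor CRX, TATAAA, the TATA box, and GGGCGG, the GC box.
Ctbp2, upstream start, chr7:133081861-133082110, minus strand: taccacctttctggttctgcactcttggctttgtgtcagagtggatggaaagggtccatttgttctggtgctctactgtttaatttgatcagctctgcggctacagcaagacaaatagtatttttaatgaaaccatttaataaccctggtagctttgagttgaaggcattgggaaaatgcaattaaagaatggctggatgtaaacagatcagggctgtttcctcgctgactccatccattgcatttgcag
Ctbp2, downstream start, chr7:133015248-133015497, minus strand: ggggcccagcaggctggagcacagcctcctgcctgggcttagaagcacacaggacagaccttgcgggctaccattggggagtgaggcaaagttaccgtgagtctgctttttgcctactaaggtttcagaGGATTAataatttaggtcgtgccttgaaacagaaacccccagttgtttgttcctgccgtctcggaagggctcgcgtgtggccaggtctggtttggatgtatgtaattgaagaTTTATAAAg
Stx3, chr19:11819404-11819653, minus strand: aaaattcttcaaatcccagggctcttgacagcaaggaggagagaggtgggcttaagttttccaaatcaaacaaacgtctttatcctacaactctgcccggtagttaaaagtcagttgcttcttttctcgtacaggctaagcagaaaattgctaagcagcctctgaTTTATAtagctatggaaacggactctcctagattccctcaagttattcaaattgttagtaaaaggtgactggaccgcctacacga
Pclo, chr5:14514668-14514917, plus strand: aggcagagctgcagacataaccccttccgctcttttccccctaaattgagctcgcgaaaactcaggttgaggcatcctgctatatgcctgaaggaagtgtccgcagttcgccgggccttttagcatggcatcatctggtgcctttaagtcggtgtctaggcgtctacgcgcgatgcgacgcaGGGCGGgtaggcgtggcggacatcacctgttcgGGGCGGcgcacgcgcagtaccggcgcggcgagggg

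The Ctbp2 starts lie 66613 bases apart. The window of the downstream start holds the reverse of the CRX core (GGATTA) at 121 to 116 bases before the start, and TATAAA in both orientations, overlapping, between 9 and 2 bases before the start. The annotated gene reaches further upstream than either start. The window of the upstream start holds none of these letters. Stx3 has the reverse of TATAAA at 85 to 80 bases before its printed start, and Pclo has GGGCGG at 68 to 63 and at 35 to 30 bases. The annotated Stx3 gene also reaches further upstream, to 11821569, where its window ends at 11819653. Of 32851 such windows, 6.25% hold the CRX core, 12.4% the TATA box and 32.7% the GC box. Pclo has 25 CpG dinucleotides in its window, against 2 and 7 in the upstream and downstream windows of Ctbp2 and 6 in that of Stx3, and the median over all windows was 6. One more motif, the E-box CAGCTG found in 13% of all windows, was in none of the 4. These matches describe letters only, and binding was not measured.

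The samples carried the markers of their labels. All 9 tested rod photoreceptor genes passed as higher in retina at both sites, and summed to 496 to 636 intensity units on retina arrays against 29.8 to 39.9 on cortex arrays at the first site. So did all 5 tested cone genes and 5 of 6 bipolar cell genes, and 5 of 6 genes of cortical projection neurons were lower. The pituitary hormone genes Gh and Cga, 2 of 5 such genes tested, and all 4 genes of blood and meninges were lower in retina at each site. Gh averaged 11.4 and 5.46 in cortex and was 189-fold and 142-fold lower in retina, and Cga was 12.7-fold and 8.18-fold lower. Among the blood and meninges genes, Lum (25.2-fold and 15.1-fold) and Dcn (19.0-fold and 18.9-fold) differed most. Of 6 pigment epithelium genes, 4 were higher in retina at each site, while Ttr was called lower at site 2, and the sums of the 6 ran from 59.0 to 62.9 in retina and from 55.5 to 73.2 in cortex at the first site. At site 2 they ran from 51.0 to 55.5 in retina and from 73.0 to 89.3 in cortex and did not overlap. Ttr made up most of these sums: its retina means were 36 (first site) and 34 (site 2), its cortex means 61 and 81. The sums therefore do not show the direction of the other genes. Those called higher were Krt18 (40.4-fold and 29.5-fold), Rpe65 (24.8-fold and 31.8-fold), Dct (13.9-fold and 6.55-fold) and Rlbp1 (5.03-fold and 4.28-fold). Pmel was not called at either site. Of 4 lens genes 2 were higher, with sums of 2.91 to 3.19 in retina and 0.639 to 0.869 in cortex at the first site, and overlapping sums of 2.79 to 4.49 in retina and 0.88 to 3.61 in cortex at site 2. No marker averaged 0 in any group. Array medians ran from 0.927 to 0.963, and the intensity scale has no unit. The part of any of these cell types in the results below was not tested.

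Ctbp2, the ribbon scaffold gene, was higher in retina at both sites. At the first site its probe read 5.60, 5.46, 5.57, 5.45 and 4.92 on the retina arrays, against 1.08, 1.05, 1.20, 1.12 and 1.11 on the cortex arrays. At site 2 it read 4.87, 4.65, 5.41, 4.21 and 4.94 in retina, against 0.883, 0.986, 0.865, 1.00 and 0.676 in cortex. Every retina array stood above every cortex array, and the lowest reading of all came from cortex replicate 5 of site 2. The share of all tested probes whose arrays separated the tissues in this way was not counted. In limma, a linear model fitted to all 10339 probes tested, the retina level of Ctbp2 was 4.86 times that of cortex at the first site (log2 difference 2.28, SE 0.094, adjusted p = 9.3e-14) and 5.49 times at site 2 (2.46, SE 0.094, adjusted p = 3e-14). The 95% confidence intervals of the fold ran from 4.24 to 5.57 and from 4.79 to 6.30. A probe counted as called when the Benjamini-Hochberg adjusted p was under 0.05 and the difference at least 2-fold. At the first site 11.9% of all tested probes were called higher in retina and at site 2 11.1%, and 2 of the 3 genes, Ctbp2 and Stx3, were among them at each site. Those called lower made up 13.0% and 13.5%, and none of the 3 genes was among them.

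**Figure D1:**
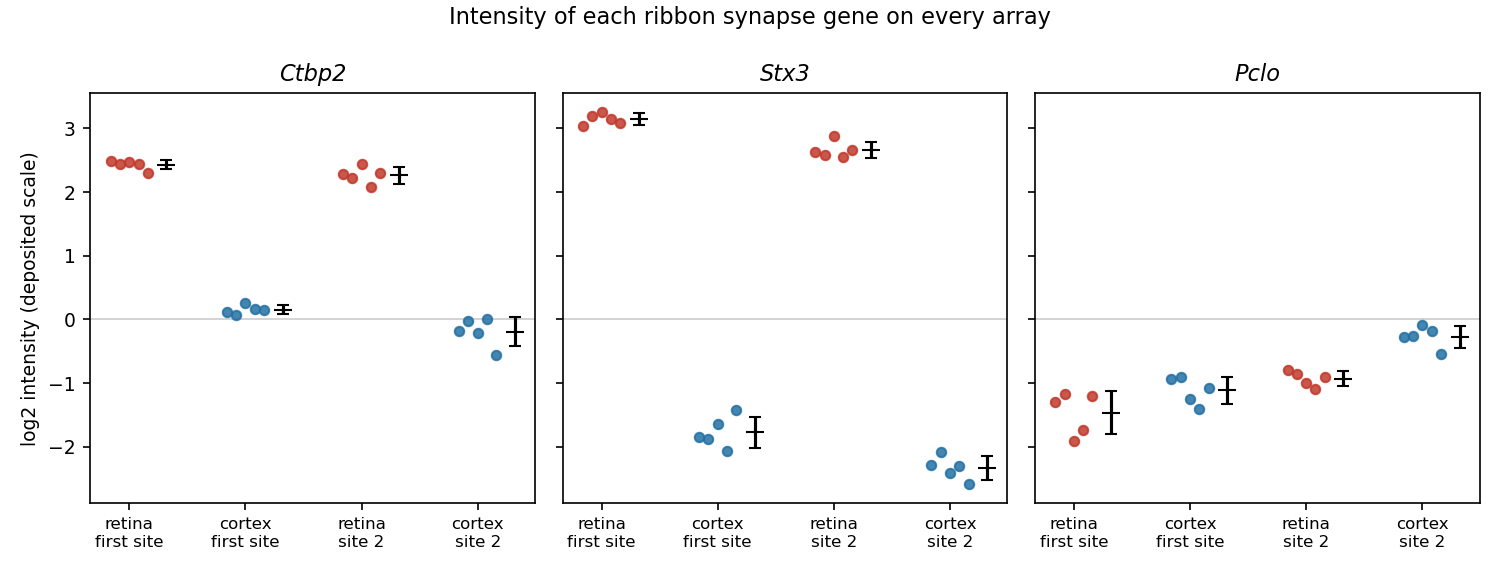
Each point is 1 array, with log2 intensity on the deposited scale on the y axis and the 4 groups on the x axis, and the black marks give the mean and SD over 5 arrays. For Ctbp2 and Stx3 no retina array overlaps a cortex array, while for Pclo the retina arrays lie lower than the cortex arrays at site 2 and overlap them at the first site.

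Stx3, the syntaxin of ribbon terminals, differed most among the 3 genes. On the retina arrays of the first site it read 8.19, 9.21, 9.55, 8.88 and 8.52, against 0.279, 0.273, 0.321, 0.239 and 0.372 on the cortex arrays. At site 2 the readings were 6.18, 5.96, 7.38, 5.89 and 6.33 in retina, against 0.205, 0.236, 0.187, 0.202 and 0.166 in cortex. The gap between the tissues was many times wider than the range of any group. The retina level was 30.2 times the cortex level at the first site (log2 difference 4.92, SE 0.11, adjusted p = 2.7e-17 in limma) and 31.9 times at site 2 (5.00, SE 0.11, adjusted p = 1.5e-17), with 95% confidence intervals of 25.7 to 35.5 and 27.2 to 37.5. By size of the difference towards retina, Stx3 ranked 46 of 10339 probes at the first site and 42 at site 2, while 3.2% and 2.43% of all tested probes ranked above Ctbp2. The cortex readings were low, since the 25th percentile of all intensities was 0.194, and no detection flag was used. The fold of Stx3 therefore depends on how the background was removed, a step not given in the sources used here.

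Pclo, the Piccolo gene, did not follow the other genes. It read 0.407, 0.443, 0.265, 0.299 and 0.437 on the retina arrays of the first site, against 0.522, 0.534, 0.419, 0.378 and 0.475 on the cortex arrays. At site 2 it read 0.580, 0.551, 0.498, 0.469 and 0.532 in retina, against 0.826, 0.832, 0.937, 0.885 and 0.683 in cortex. The tissues overlapped at the first site, where a retina array stood above a cortex array in 5 of 25 pairs, and did not overlap at site 2. How many of all tested probes separated the tissues in this way was not counted, so the lack of overlap does not set Pclo apart. The log2 difference was -0.35 at the first site (SE 0.14, adjusted p = 0.04 in limma) and -0.66 at site 2 (SE 0.14, adjusted p = 4.6e-04), which is 1.27-fold and 1.58-fold, and Pclo was called at neither site because both differences were under 2-fold. Without the fold limit 31.3% and 32.1% of all tested probes passed as lower in retina, whatever the size of their difference. By size, 32.6% of all tested probes lay further towards cortex than Pclo at the first site and 22.8% at site 2. The 95% confidence intervals of the log2 difference, -0.64 to -0.05 and -0.95 to -0.36, did not reach a 2-fold difference.

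**Figure D2:**
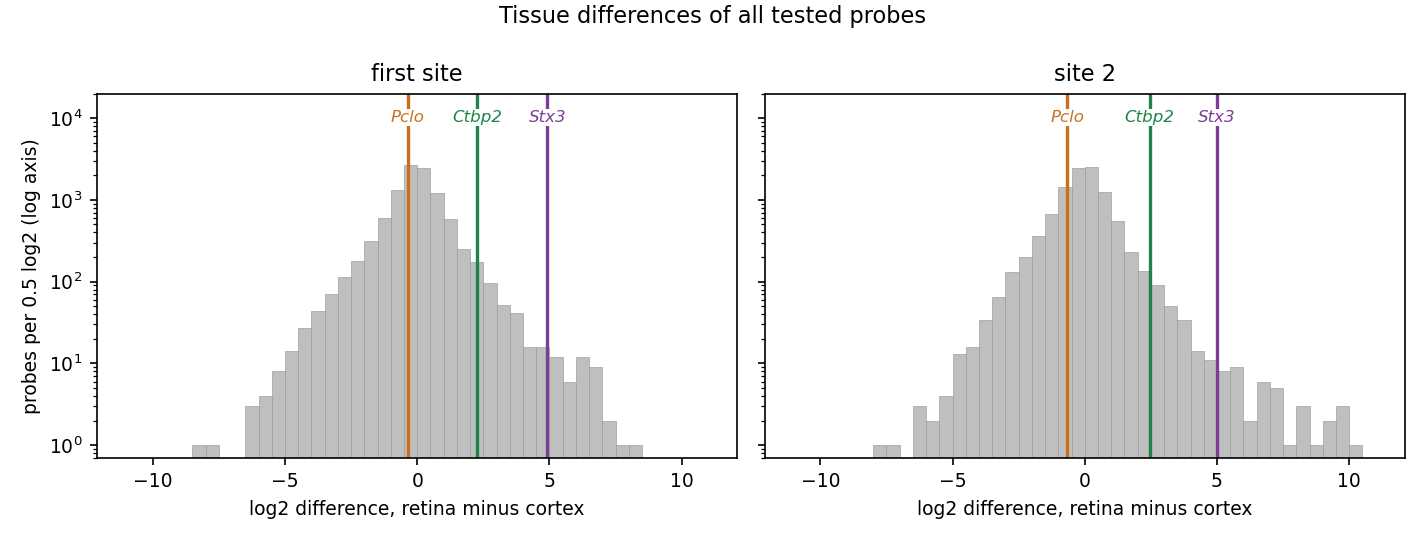
Histograms of the log2 difference, retina minus cortex, of the 10339 probes tested, with the number of probes on a log axis and 1 panel per site. Coloured lines mark Stx3 at 4.92 and 5.00, Ctbp2 at 2.28 and 2.46, and Pclo at -0.35 and -0.66.

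Permuting the 10 arrays of a site between the tissues (exact permutation test, 2-sided) gave p = 0.00794 for Ctbp2 and for Stx3 at each site, the smallest p that this design allows, and the same p for Pclo at site 2. For Pclo at the first site the exact permutation p was 0.0952. These were among 12 such tests on the 3 probes and are not adjusted for their number. As the mean of both sites, taken from the same fit of group means, the log2 differences were 2.37 for Ctbp2 (SE 0.066), 4.96 for Stx3 (SE 0.078) and -0.50 for Pclo (SE 0.0996). Their adjusted p in limma were 1.1e-16, 3.7e-20 and 1.7e-04. By these means Ctbp2 and Stx3 were called higher, as were 11.1% of all tested probes, and Pclo was not called.

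Whether the sites gave the same tissue difference was tested as an interaction. The difference between the sites of retina minus cortex was 0.18 for Ctbp2 (95% confidence interval -0.10 to 0.46), 0.08 for Stx3 (-0.25 to 0.41) and -0.31 for Pclo (-0.73 to 0.11), with adjusted p in limma of 0.45, 0.79 and 0.37. None of the 3 was called, and 0.725% of all tested probes were. The intervals leave room for site differences of up to 0.46, 0.41 and 0.73 on the log2 scale, so equal tissue differences were not shown. With quantile normalization in place of the deposited scaling, the value for Stx3 was 0.57 (adjusted p = 0.0375 in limma), beyond that interval, though still under 2-fold and so not called.

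By their estimates, the levels themselves differed between the sites by less than 2-fold in each tissue, towards the first site for Stx3 and towards site 2 for Pclo. Stx3 averaged 6.35 ± 0.60 at site 2 and 8.87 ± 0.54 at the first site in retina (SD, n = 5 each), and 0.199 ± 0.026 at site 2 and 0.297 ± 0.051 at the first site in cortex. The log2 difference of its level, site 2 minus first site, was -0.48 in retina and -0.57 in cortex (adjusted p = 0.0014 and 4.0e-04 in limma). Ctbp2 differed by -0.17 in retina and by -0.35 in cortex (adjusted p = 0.15 and 0.0055). For Pclo the differences were 0.53 in retina and 0.84 in cortex (adjusted p = 0.0045 and 8.9e-05 in limma). It averaged 0.526 ± 0.043 at site 2 and 0.370 ± 0.083 at the first site in retina, and 0.833 ± 0.095 at site 2 and 0.465 ± 0.067 at the first site in cortex. None of these estimates reached 2-fold, so none was called. Of all tested probes, 6.24% were called between the sites in retina and 7.21% in cortex. Without the fold limit 46.7% and 46.8% of all tested probes passed, and so did Stx3 and Pclo in both tissues and Ctbp2 in cortex. No array of the first site overlapped with site 2 for Stx3 or Pclo in either tissue, nor for Ctbp2 in cortex. The share of all tested probes without such overlap was not counted. The mean of Pclo in site 2 retina, 0.526, was above its mean in first-site cortex, 0.465, so retina was the lower tissue for this gene within each site but not across the sites.

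**Figure D3:**
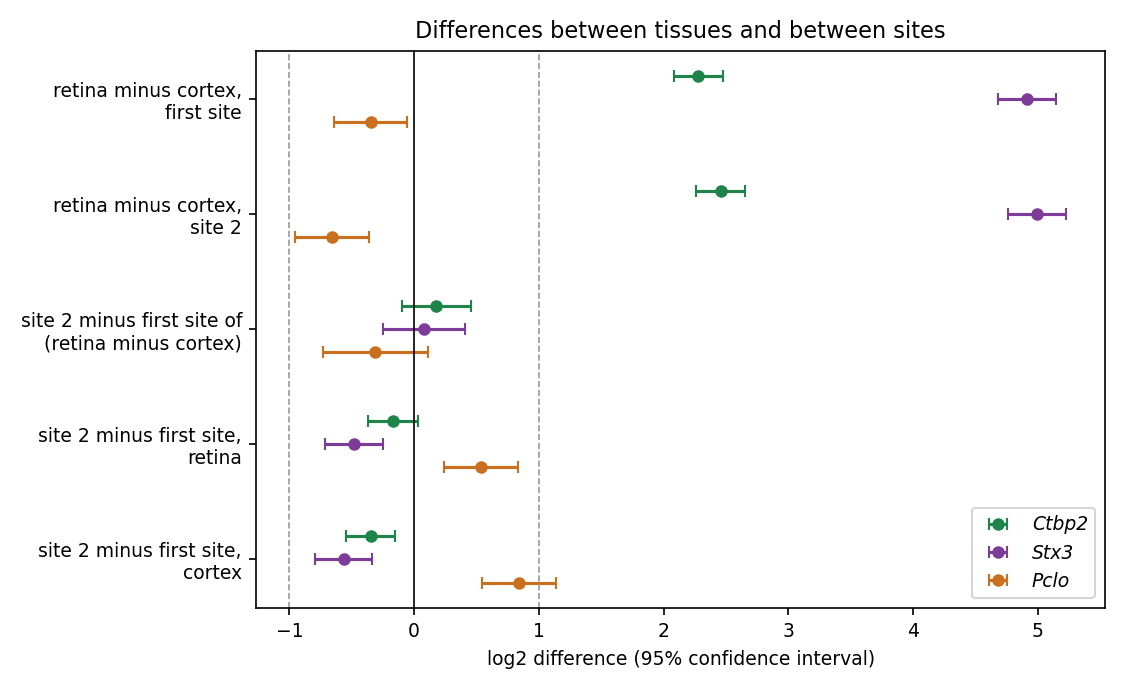
Log2 differences with 95% confidence intervals from limma on the x axis for Ctbp2, Stx3 and Pclo, with the comparisons down the page, and dashed lines at a 2-fold difference. The tissue differences of Stx3 and Ctbp2 lie far beyond 2-fold at both sites, while Pclo and all differences between the sites have their estimates within it.

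The design also asks how far arrays of the same RNA differed. The SD of log2 intensity over 5 arrays of Ctbp2 at the first site was 0.076 in retina and 0.074 in cortex, and at site 2 it was 0.13 in retina and 0.23 in cortex. For Stx3 at the first site it was 0.088 in retina and 0.24 in cortex, and at site 2 it was 0.13 in retina and 0.19 in cortex. Pclo varied most in retina of the first site, with an SD of 0.34, above that of 79.3% of all tested probes there, and had 0.21 in cortex. The median SD of all tested probes at the first site was 0.162 in retina and 0.165 in cortex, and at site 2 it was 0.158 in retina and 0.225 in cortex. Retina replicates 3 and 4 of the first site, at 0.265 and 0.299, held the low Pclo readings.

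Of 16 genes listed for the ribbon synapse, 8 were on the array and tested, Ctbp2, Stx3 and Pclo among them. Of the other 5 genes, 3 passed as higher in retina and 1 as lower, at both sites, against 11.9% and 11.1% of all tested probes called higher and 13.0% and 13.5% called lower. Their median log2 difference was 1.65 and 2.29, against -0.04 and -0.05 over all tested probes. Unc119, a lipid-binding trafficking protein of photoreceptor terminals, stood higher in retina by 12.4-fold and 21.4-fold. Both tested subunits of the photoreceptor calcium channel were higher too: the auxiliary subunit Cacnb2 was 10.9-fold and 8.33-fold higher, and the pore subunit Cacna1f 3.13-fold and 4.91-fold. The cortex means of Cacnb2 were low, 0.141 at the first site and 0.199 at site 2, so its folds depend on how the background was removed. Otof, the calcium sensor otoferlin of hair cell ribbon synapses, was 5.53-fold and 4.57-fold lower in retina, with low first-site means of 0.074 in retina against 0.387 in cortex. Rims2, an active zone protein, differed by 0.70 and 0.77 on the log2 scale and was not called.

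Of 9 tested genes of the active zone scaffold and its Rab partners other than Pclo, 3 were called lower in retina at each site and 0 higher, at a median log2 difference of -0.48 and -0.21. Over all tested probes 11.9% and 11.1% were called higher, so a count of 0 among so few genes does not set the list apart. Those called lower made up 13.0% and 13.5% of all tested probes, and whether the count of 3 departs from this was not tested. Those called lower were Rab3b (8.29-fold and 8.21-fold), a vesicle GTPase, its relative Rab3c (2.75-fold and 2.99-fold), and Ppfia4 (3.88-fold and 3.90-fold), a liprin scaffold protein. In limma without the fold limit, more of these genes passed in both directions, such as Rims2 (adjusted p = 5.8e-06 and 1.7e-06) towards retina and Cask (2e-06 and 1e-05) towards cortex. Cask, at -0.97 on the log2 scale at the first site, was called there without cortex replicate 4 (-1.05).

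Within the syntaxin family the members differed in direction. Of 10 tested syntaxins other than Stx3, 1 passed as higher in retina and 3 as lower, at both sites. Over all tested probes 11.9% and 11.1% were called higher, and 13.0% and 13.5% lower. Besides Stx3 only Stx4a, a plasma membrane syntaxin, was called higher (2.98-fold and 2.82-fold). In limma without the fold limit, further syntaxins passed in both directions. Examples were Stx8 (adjusted p = 1.5e-06 and 1.1e-06) towards retina and Stx12 (3.3e-08 and 0.0016) towards cortex. Stx1a, the syntaxin of conventional synapses, was lower in retina, with log2 differences of -3.20 and -1.93 (adjusted p = 2.8e-04 and 0.015 in limma). The fit shares 1 estimate of the spread per probe over all 4 groups, so the large SE of 0.65 was the same at each site. This SE does not give the spread at the first site alone. At the first site Stx1a read 0.223 to 0.293 in retina, against 2.05 to 2.63 in cortex. At site 2 retina replicate 3 read 8.05 and the other retina arrays 0.257 to 0.357, against 1.47 to 2.48 in cortex, so the mean intensities there, 1.84 in retina and 2.19 in cortex, were close. Without that array the log2 difference at site 2 was -2.89 (adjusted p = 4.7e-12 in limma). The endosomal Stx7 was 2.73-fold and 2.77-fold lower. Stx2 (2.14-fold and 2.97-fold lower) lost its call without 1 array at each site, with adjusted p = 0.054 in limma at the first site without retina replicate 5, and with a log2 difference of -0.98 at site 2 without cortex replicate 5. Ctbp1, which encodes the corepressor closest to CtBP2, differed by -0.36 and -0.41 and was not called.

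**Figure D4:**
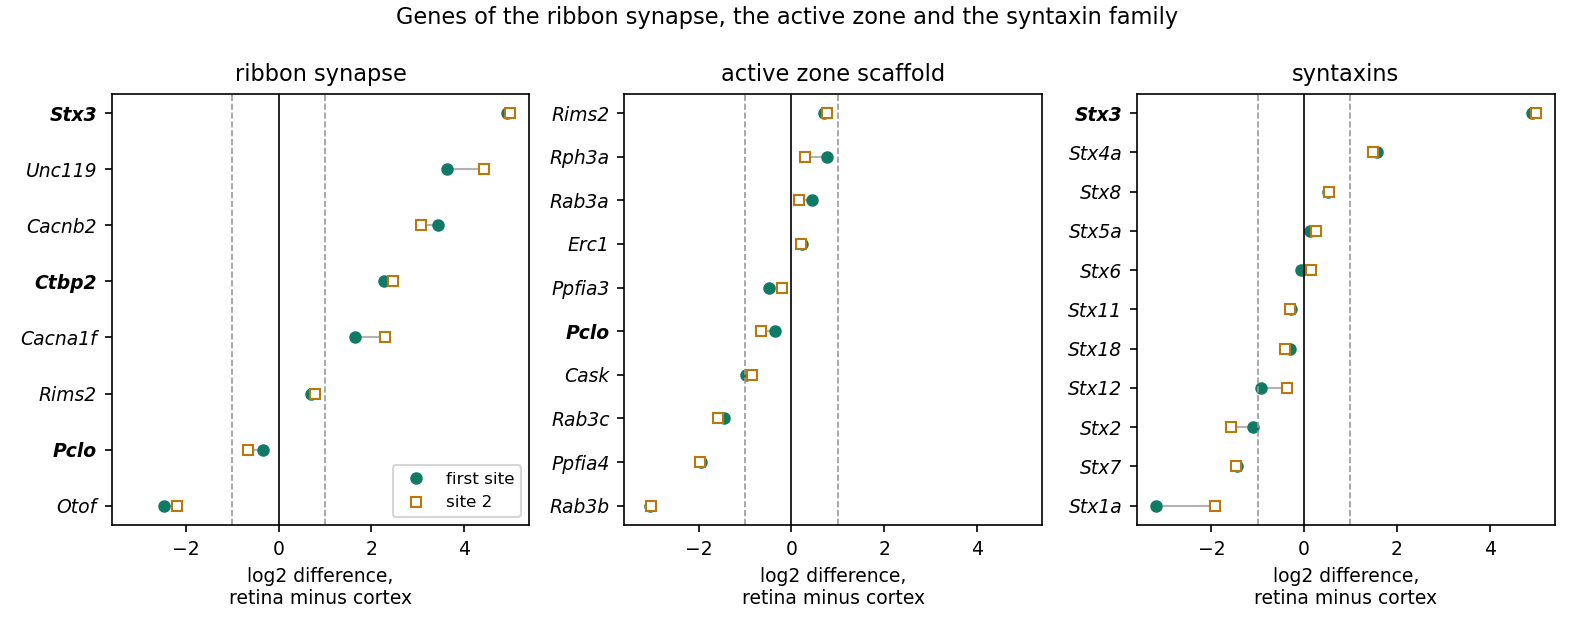
Log2 differences, retina minus cortex, on the x axis for the tested genes of 3 lists, with filled circles for the first site, open squares for site 2 and dashed lines at 2-fold. Stx3 lies at the top of the ribbon synapse and syntaxin lists, Ctbp2 within the upper part of the ribbon synapse list, and Pclo between 0 and -1 at both sites.

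Partners of syntaxins on the fusion machinery were mixed. Of 24 tested SNARE partners and regulators, 7 passed as higher in retina and 2 as lower at each site, not all of them the same genes. For this list and those below, the shares over all tested probes were 11.9% and 11.1% higher, and 13.0% and 13.5% lower. Vamp8, a vesicle SNARE, was 6.58-fold and 6.42-fold higher, and Stxbp3, a syntaxin-binding protein of the Munc18 family, 4.85-fold and 4.71-fold. Syt5, a synaptotagmin, was 3.10-fold and 2.94-fold lower in retina, and its relative Syt4 differed by -0.78 and -1.20 and was called at site 2 only. Of 8 synapsins and other markers of conventional terminals, 0 were called higher in retina and 3 lower at each site, among them Syngr3, a synaptic vesicle protein (2.50-fold and 3.87-fold lower). Of 8 tested genes listed for the postsynaptic side of the photoreceptor synapse, 2 were called higher at each site. These were the G protein subunit Gnb5 (10.4-fold at both) and the kainate receptor Grik1 (4.44-fold and 3.74-fold). Called lower were 2 and 1, among them the AMPA receptor Gria4 (2.48-fold and 2.73-fold). In which cells these genes were expressed was not measured.

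Genes with the most alike profile were ranked by the root mean square difference of log2 values over the 20 arrays, each profile centred on its own mean, among 8479 genes with a value on every array. These points share arrays and only 2 RNA pools, so the ranking describes likeness over 4 groups. Nearest to Ctbp2 were Cyb5r1 (0.12), Snord123 (0.14), Cflar (0.15), Prkca (0.15) and Slc16a1 (0.16), where the median over all genes was 1.30. Prkca is protein kinase C alpha, a marker of rod bipolar cells, and differed by 2.41 and 2.42, and Slc16a1 is a monocarboxylate transporter. Nearest to Stx3 were Krt18 (0.25), Laptm4b (0.29), Mpp4 (0.29), Gpsm2 (0.30) and Spc25 (0.31), against a median of 2.56. Krt18 is also among the pigment epithelium genes above. Mpp4, a scaffold protein of photoreceptor terminals, differed by 5.01 and 5.28. Nearest to Pclo were G3bp1 (0.18), Tbxas1 (0.20), Mapk6 (0.20), Tspan13 (0.20) and Adam21 (0.21), against a median of 0.66, and their tissue differences lay between -0.38 and -0.87 at both sites.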

How the data were processed

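The deposited table gives 1 intensity per probe and array on a linear scale. What the authors did to make these intensities (scanner software, background removal, scaling, quality filter) is not given in the sources used here; biotin labelling followed the CodeLink protocol, per the labels. From the values, 143 intensities were at or below 0, and 2080 were blank. Gene symbols came from the platform annotation (9378 of 10500 probes with 1 symbol), and RefSeq GRCm38.p6 changed 0 symbols. The members and gene lists were chosen with earlier results of these data known. Named genes were the 3 members, the 5 genes nearest to each, and for each list the largest differences in each direction, with further listed genes chosen after their values were seen.

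Values were put on the log2 scale, with those at or below 0 as missing. Probes with a value on at least 3 of 5 arrays in each group were tested (10339), with no further normalization, in limma 3.58.1 under R 4.3.3: a mean for each of 4 groups (lmFit, eBayes), 2-sided p-values, Benjamini-Hochberg adjustment over all probes tested. A gene with several probes was represented by the brightest. The test was checked on simulated data. Python 3.11.15 was used for tables and plots. The number of arrays limits the precision. No slide or scan batch was given, so the site was the only batch known, and batches within a site could not be checked. Tissue differences were taken within each site and as the mean of both sites. Same-numbered arrays did not deviate together (correlations of -0.078 to 0.054). Alternatives were other normalizations, floors, an offset, filters, fits and calls, and leaving out each array.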

Additional observations from a re-analysis of the deposited data

Results flagged for a closer look

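Among 12 sets of 5 arrays, 3 genes in 4 groups, 1 held a reading that stood apart by Dixon's ratio on the log2 scale. Ctbp2 read 4.92 on retina replicate 5 of the first site, against 5.45 to 5.60 on the other retina arrays there, a ratio of 0.792. Chance sets apart about 1 in 20 such sets. Without this array the difference from cortex at the first site was 2.31 on the log2 scale, and with it 2.28.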

How the results depend on the processing

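The tissue differences of Ctbp2 and Stx3 kept their direction and call under all 31 alternatives at each site. Many of these could not change the estimate. Leaving out an array of the other site did not, nor did other filters, a replicate block, a fit of only the groups compared or the permutation test. Dropping the fold limit could only add calls. Ctbp2 ran from 2.18 to 2.31 at the first site and from 2.33 to 2.51 at site 2, and Stx3 from 4.51 to 5.00 and from 4.43 to 5.34. The lowest values came with an offset of 0.1 before the log. With a replicate block the values of all 3 genes and all their calls were as before (Pclo -0.35 and -0.66, adjusted p = 0.0319 and 4.5e-04 in limma), and array numbers did not pair the arrays. Pclo ranged from -0.42 to -0.22 at the first site, with adjusted p in limma of 0.0182 to 0.163, and from -0.73 to -0.57 at site 2. Without the fold limit Pclo was called at the first site (-0.35), at site 2 (-0.66) and over both sites (-0.50). The same choice called the site shifts of Stx3 (-0.48 in retina, -0.57 in cortex), Pclo (0.53 and 0.84) and, in cortex, Ctbp2 (-0.35). It moved the calls over all probes to 6192 and 6247 for the tissues at the first site and site 2, 7050 over both, 411 for the difference between the sites, and 4825 and 4841 for the sites in retina and cortex. With the fold limit these were 2574, 2542, 2485, 75, 645 and 745. A floor at the 25th percentile left 312 and 396 site calls in retina and cortex, and the offset 255 and 370, with 35 for the difference between the sites. The difference between the sites for Stx3, never called, moved most with quantile normalization, to 0.57 (adjusted p = 0.0375 in limma), and turned to -0.078 with the offset. Leaving out 1 array gave -0.0052 to 0.15 for it, the lowest without cortex replicate 5 of the first site, and 56 to 121 calls over all probes, the highest without cortex replicate 5 of site 2. Among the listed genes, leaving out 1 array (chosen after seeing the data) also ended the calls of Dag1 at the first site (-0.93) and Syn2 at site 2 (-0.98 without cortex replicate 1), and made calls of Syngr1 and Napa at the first site and Vamp1 at site 2, all near 2-fold. The cause was not tested. Low readings, with no detection flag, limit the folds of Stx3 and the level of Pclo.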
